A study of Mus musculus with 8 samples.

Results

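Transcripts of 9 mitogen-activated protein (MAP) kinase genes were measured by RNA-Seq in articular chondrocytes of the mouse, in primary culture with IL-1β or with vehicle. The 9 genes were taken by symbol from a table of 54658 gene symbols. They comprise the ERK genes Mapk3 (ERK1) and Mapk7 (ERK5), the JNK genes Mapk8 (JNK1), Mapk9 (JNK2) and Mapk10 (JNK3), and the p38 genes Mapk14 (p38α), Mapk11 (p38β), Mapk12 (p38γ) and Mapk13 (p38δ). All 9 were found. Wild-type mice aged 3 weeks gave the cells, which were taken from femoral heads. Of the 8 samples, 4 received IL-1β at 1 ng/mL for 24 h while 4 received vehicle for as long. The sources used here do not state whether samples of a group came from separate animals, pools or cultures, so p-values measure the spread between these samples, which may be technical. Sequencing gave 10992355 to 17104351 counts per sample with IL-1β and 13970959 to 17456063 with vehicle, and 3 counts were worth 0.173 to 0.270 CPM (counts scaled to a common library size). This was set as the detection floor. The floor covers counting error only. The comparison asks how the cytokine changes the abundance of these transcripts and whether the 4 p38 isoforms respond alike.

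MAP kinases are the last kinases of a cascade in which a MAP3K phosphorylates a MAP2K and the MAP2K phosphorylates the MAP kinase. ERK1 is classically switched on by growth factors, ERK5 by growth factors and stress, and JNK and p38 by stress and by inflammatory cytokines such as IL-1β. In articular cartilage these kinases act downstream of the IL-1 receptor, alongside NF-κB, and are studied as regulators of matrix-degrading enzymes. They are controlled mainly by phosphorylation, which transcript counts do not measure.

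A MAP2K activates a MAP kinase by phosphorylating a threonine and a tyrosine that lie on either side of 1 residue in the activation loop. The middle residue separates the subfamilies, so the coding sequence around this motif is given for each gene, 5′ to 3′, from the longest coding transcript of GENCODE vM21, with the 3 codons of the motif in capitals.
Mapk3: ggctttctgACGGAGTATgtggccacacgc
Mapk7: tacttcatgACTGAGTATgtggctactcgc
Mapk8: tttatgatgACGCCTTATgtggtgactcgc
Mapk9: tttatgatgACTCCCTATgtggtaactcga
Mapk10: ttcatgatgACTCCGTATgtggtgacgcga
Mapk14: gatgagatgACAGGCTACgtggctaccagg
Mapk11: gaggagatgACCGGATATgtggccacacgg
Mapk12: agtgagatgACAGGATATgtggtaacccgg
Mapk13: actgagatgACGGGCTATgtggtgacccgc
The middle codon encodes glutamate in both ERK genes, proline in the 3 JNK genes and glycine in the 4 p38 genes. Counted from the first codon of these transcripts, the motif spans codons 180 to 182 in Mapk14, Mapk11 and Mapk13, and codons 183 to 185 in Mapk12, Mapk8 and Mapk9. It spans codons 203 to 205 in Mapk3, 219 to 221 in Mapk7 and 251 to 253 in Mapk10. Coding regions held 359 codons in Mapk14, 363 in Mapk11, 366 in Mapk12 and 365 in Mapk13, against 805 in Mapk7, whose product carries a long C-terminal extension. Among the p38 genes, coding identity was 71.8% for Mapk12 with Mapk13 and 70.3% for Mapk14 with Mapk11, and between 65.3% and 67.4% for the other 4 pairs. The longest run of identical bases between any p38 pair was 20 bases, and it was 27 bases among the JNK genes and 19 between Mapk3 and Mapk7.

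The p38 genes lie in pairs (GRCm38). Mapk14 occupies chr17:28691329-28748406 and Mapk13 follows it on the same plus strand at chr17:28769297-28780233, with 20890 bases and 0 annotated genes between them. Mapk12 at chr15:89130584-89140703 and Mapk11 at chr15:89142486-89149628 lie on the minus strand, 1782 bases apart, also with 0 genes between them. The ERK genes are at chr7:126759601-126765819 on the plus strand (Mapk3) and chr11:61488812-61494406 on the minus strand (Mapk7). The JNK genes are at chr14:33377898-33447158 on the minus strand (Mapk8), chr11:49846751-49886421 on the plus strand (Mapk9) and chr5:102907948-103211334 on the minus strand (Mapk10). Counts were summed over all exons of a gene, including its untranslated regions. Of the exon bases of Mapk7, 2.03% also belong to Mfap4, a gene at a mean of 0.297 CPM after IL-1β against 0.0866 CPM after vehicle. The other 8 genes share 0 exon bases with another gene.

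Levels of different genes were compared as CPM per kilobase of the deposited gene length. In vehicle-treated chondrocytes Mapk3 had the highest level of the 9, at 27.7 ± 0.703 CPM per kilobase (SD, n = 4). Mapk14 followed with 11.0 ± 0.436, Mapk9 with 7.75 ± 0.282, Mapk7 with 5.06 ± 0.510, Mapk8 with 2.66 ± 0.148 and Mapk13 with 1.79 ± 0.152. Mapk12 stood at 0.393 ± 0.0734 and Mapk11 at 0.195 ± 0.0722 CPM per kilobase. No neighbours in this order overlapped between samples. Mapk10 was last and had 0 or 1 count per vehicle sample, which is under the detection floor.

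After IL-1β, Mapk13 stood at rank 4 in place of rank 6, with 7.29 ± 0.644 CPM per kilobase (SD, n = 4). Its samples now overlapped those of Mapk9, at 7.93 ± 0.227, and those of Mapk7, at 6.43 ± 0.646. The order of the other 8 genes among themselves stayed as in vehicle, with Mapk3 at 31.8 ± 1.97 and Mapk14 at 13.8 ± 0.229 CPM per kilobase. The ranks in the middle depend on the length used. By the length of the longest coding transcript or of the coding region alone, Mapk13 stood at rank 5 after IL-1β, and by the coding region alone Mapk8 stood at rank 4 in both groups. Mapk13 was at rank 6 in vehicle by all 3 lengths. After IL-1β it averaged 7.82 CPM per kilobase of the longest coding transcript, against 11.5 for Mapk9. Per kilobase of the coding region it averaged 20.9, against 42.4 for Mapk9, so its nearness to Mapk9 depends on the length used.

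**Figure D1:**
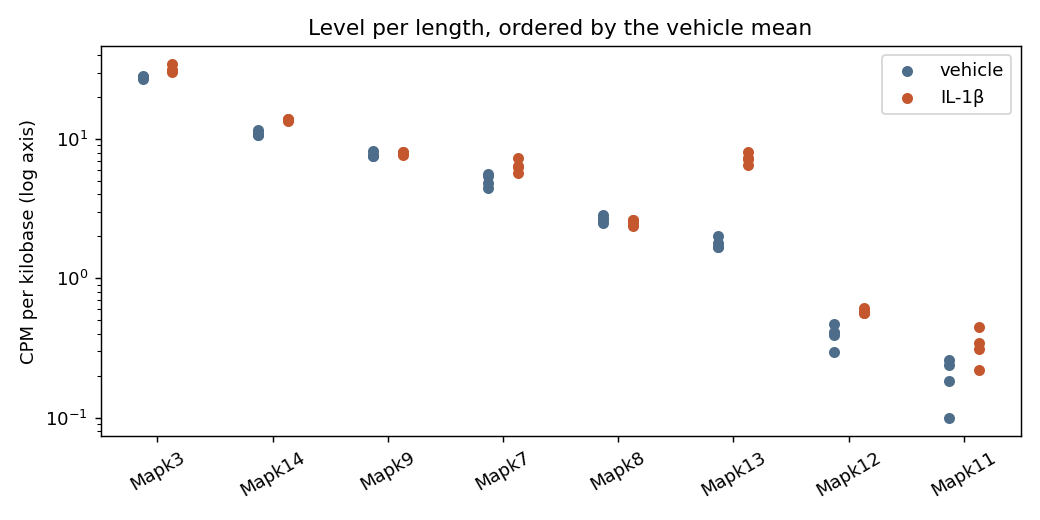
Level of 8 MAP kinase genes in each sample, as CPM per kilobase of gene length on a log axis, with genes ordered by their vehicle mean and 1 point per sample; Mapk10 is left out because of its counts of 0. By this length, Mapk13 moved from 1.79 with vehicle to 7.29 with IL-1β on average, into the range of Mapk9 and Mapk7.

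Of the 9 genes, 7 passed the filter of a CPM above 1 in at least 4 samples, and all 7 were above 1 CPM in all 8 samples. By edgeR's quasi-likelihood test with Benjamini-Hochberg adjustment over 14404 genes, 5 of the 7 changed, all 5 upwards: Mapk13, Mapk12, Mapk7, Mapk14 and Mapk3. None was lower. Across all genes tested 40.2% changed, 20.4% upwards and 19.8% downwards, so 5 of 7 stands against a background in which a change was common. In those 5 genes the groups did not overlap, as in 36.8% of all genes tested. Mapk13 was the only differentially expressed gene (DEG, adjusted p under 0.05 and log2 fold change above 1 or below -1) among the 7, and 5.21% of all genes tested were DEGs. The median log2 fold change of the 7 was 0.32, that of all genes tested was -0.0012, and the median size of the change in either direction over all genes was 0.16.

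The samples are bulk RNA, in which a change in the number of cells of a type and a change in RNA per cell cannot be told apart. The labelled cell type was visible in its markers, with Col2a1, the main cartilage collagen, at 11191 CPM in vehicle and 2844 CPM with IL-1β. Of 10 chondrocyte markers 9 were lower with IL-1β and 1, Prg4, was higher, and their sum was 6137 to 6663 CPM after IL-1β against 16981 to 17565 CPM after vehicle. Of 9 macrophage markers 3 were tested: Cd68 and Cd14 were higher and Lyz2 lower, and the sum was 29.9 to 33.5 CPM with IL-1β against 14.8 to 17.0 CPM with vehicle. C1qb was at 0 in all samples and C1qa in all IL-1β samples, and Adgre1, Ptprc and Itgam did not exceed 0.433 CPM, and Csf1r 1.26 CPM, in any sample. Of 5 osteoblast markers all 5 were lower, with sums of 111.8 to 128.1 against 221.9 to 227.5 CPM. The osteoclast list gave sums of 132.0 to 137.7 against 109.3 to 110.9 CPM, nearly all of it Ctsk, the 1 member of 4 tested, which was higher. Of 6 endothelial, 6 T and B cell and 5 neutrophil markers 0 were tested, and of 6 epithelial markers 1 was tested and did not pass. The part of cell composition in the changes of the MAP kinase genes was not tested.

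**Figure D2:**
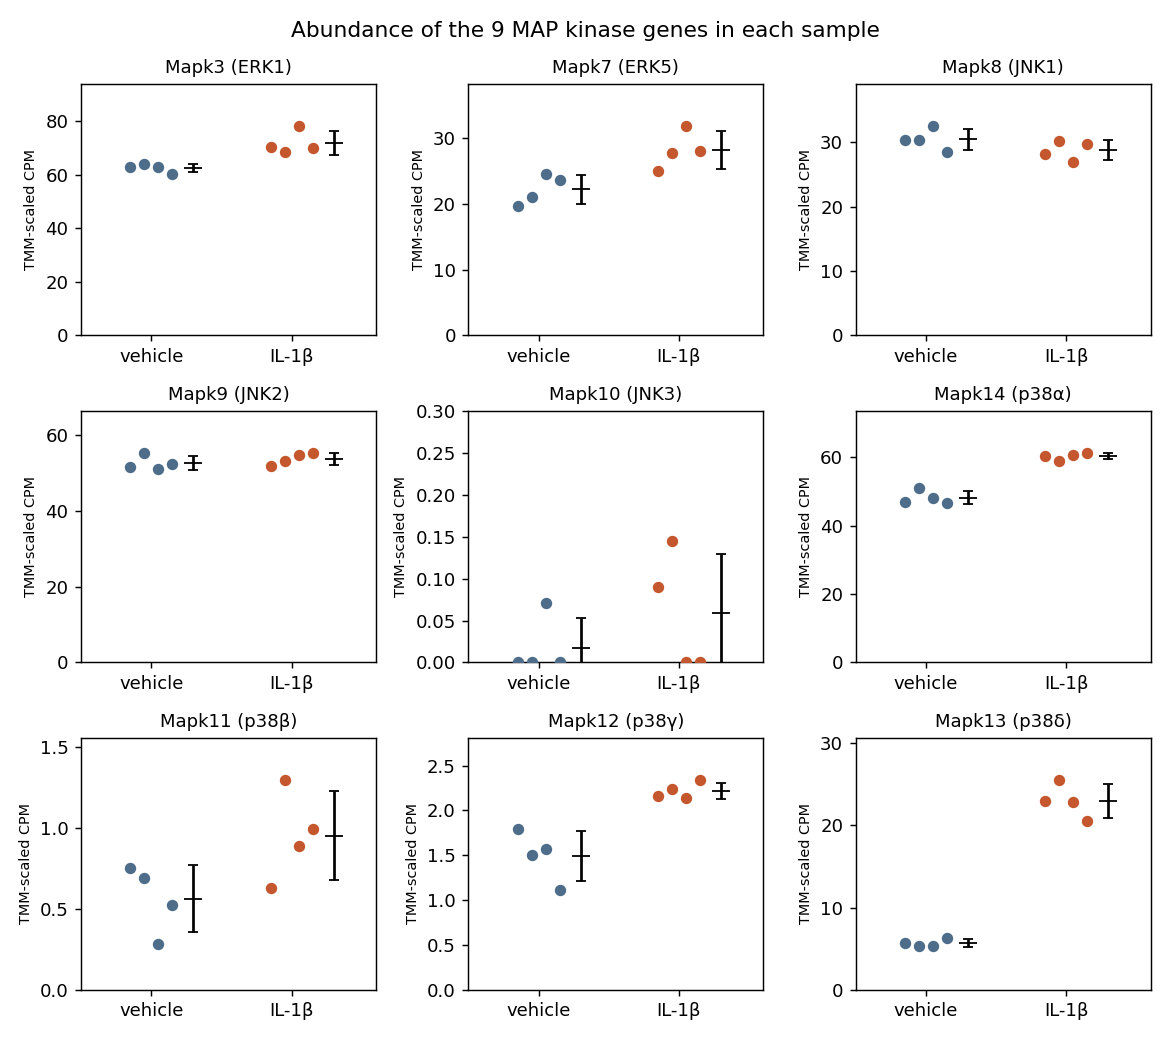
TMM-scaled CPM of each of the 9 MAP kinase genes, 1 panel per gene with its own axis starting at 0, with a point per sample and the mean ± SD (n = 4) beside each group. The groups lie apart for Mapk3, Mapk7, Mapk12, Mapk13 and Mapk14, and overlap for Mapk8, Mapk9, Mapk10 and Mapk11.

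Mapk13 encodes p38δ, an isoform known from epithelia and myeloid cells that is less sensitive than p38α to the classic p38 inhibitors. It was counted at 23.0, 25.5, 22.8 and 20.6 CPM in IL-1β samples 1 to 4 and at 5.65, 5.32, 5.28 and 6.31 CPM in vehicle samples 1 to 4. The lowest IL-1β sample was thus far above the highest vehicle sample. The fitted log2 fold change was 2.02 (SE 0.0923, adjusted p = 5.89e-17 by edgeR), a 4.07-fold rise. Leaving out each sample in turn moved it between 1.97 and 2.08.

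Mapk14 encodes p38α, the ubiquitous isoform that relays most cytokine signals to MK2, its main downstream kinase. Its abundance was 60.4, 58.9, 60.7 and 61.3 CPM in the IL-1β samples and 47.0, 50.8, 48.1 and 46.6 CPM in the vehicle samples. The groups did not overlap, and the IL-1β samples were the tighter, with an SD of 1.00 CPM against 1.91 CPM. Mapk14 rose 1.25-fold, a log2 fold change of 0.32 (SE 0.0412, adjusted p = 1.85e-07 by edgeR). The rise was small beside that of Mapk13 but started from a higher level.

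Mapk12 encodes p38γ, which is best known from skeletal muscle and can bind PDZ domains of scaffold proteins. It was rare, with 24, 31, 36 and 33 counts in the IL-1β samples and 31, 26, 22 and 17 counts in the vehicle samples. As CPM these were 2.16, 2.24, 2.14 and 2.34 against 1.79, 1.502, 1.57 and 1.12, so that every IL-1β sample was above every vehicle sample. The log2 fold change was 0.56 (SE 0.202, adjusted p = 0.0275 by edgeR), or 1.48-fold. The call rests on few counts. It was lost without IL-1β sample 4 (log2 fold change 0.54, adjusted p = 0.0581), without vehicle sample 2 (0.56, adjusted p = 0.0517) and without vehicle sample 4 (0.45, adjusted p = 0.104). It was also lost with DESeq2 (0.57, adjusted p = 0.0860) and with no filter on low counts (0.56, adjusted p = 0.0692).

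Mapk11 encodes p38β, the isoform closest to p38α in sequence and in inhibitor sensitivity. It had 7, 18, 15 and 14 counts with IL-1β and 13, 12, 4 and 8 counts with vehicle, and was too low to enter the test. The groups overlapped, since IL-1β sample 1, at 0.631 CPM, lay below vehicle samples 1 and 2, at 0.750 and 0.693 CPM. In a fit with no filter, its log2 fold change was 0.73 (SE 0.346, adjusted p = 0.153 by edgeR). A difference in Mapk11 was therefore not detected.

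The response of 1 p38 isoform was compared with that of another by the log2 ratio of their counts within each sample, over all 6 pairs. The ratio of Mapk13 to Mapk14 was -1.39, -1.21, -1.41 and -1.57 in the IL-1β samples and -3.05, -3.25, -3.18 and -2.88 in the vehicle samples. The ratio was higher in every IL-1β sample, by 1.69 ± 0.111 (SE) on the log2 scale, so that Mapk13 rose 3.24-fold relative to Mapk14. Relative to Mapk12 it rose by 1.44 ± 0.204 and relative to Mapk11 by 1.25 ± 0.340 on the log2 scale, again with no overlap between groups. Each of these 3 differences had p = 0.0286 by the two-sided exact permutation test, the smallest p that 4 samples against 4 allow. Adjusted over the 6 pairs, each exact permutation p became 0.0571 (Benjamini-Hochberg), so no pair passed a threshold of 0.05 after adjustment.

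The 3 pairs without Mapk13 showed no difference in response past the threshold, before or after adjustment. The log2 ratio of Mapk12 to Mapk14 was higher with IL-1β by 0.26 ± 0.139 (SE, exact permutation p = 0.114, adjusted p = 0.171). That of Mapk11 to Mapk14 was higher by 0.44 ± 0.356 (exact permutation p = 0.286, adjusted p = 0.343), and that of Mapk12 to Mapk11 was lower, at -0.19 ± 0.359 (exact permutation p = 0.686, adjusted p = 0.686). The groups overlapped in all 3 pairs. Without vehicle sample 3, in which Mapk11 had 4 counts, the difference for Mapk12 to Mapk11 turned to 0.11 and that for Mapk11 to Mapk14 fell to 0.17. The latter was 0.28 without IL-1β sample 2, and the former -0.03 without IL-1β sample 2, -0.35 without IL-1β sample 1, -0.30 without vehicle sample 2 and -0.31 without vehicle sample 4. For Mapk12 to Mapk14 it was 0.14 without vehicle sample 4. The standard errors of these pairs leave room for differences of the size measured for Mapk14 itself, so the values do not show that these isoforms respond alike.

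**Figure D3:**
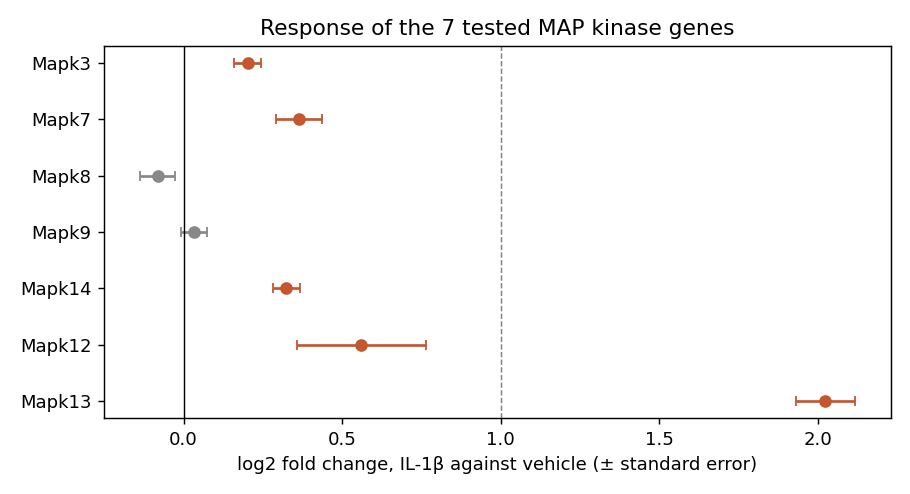
Log2 fold change (IL-1β against vehicle) of the 7 tested MAP kinase genes with its standard error, orange where the adjusted p is under 0.05; the dashed line marks a log2 fold change of 1. Mapk13 alone lies beyond the line, at 2.02, while Mapk8 and Mapk9 lie close to 0.

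Per length, the composition of the p38 genes differed between the groups. Mapk13 made up 33.3, 35.9, 32.9 and 30.4% of the summed p38 level in the IL-1β samples and 13.5, 12.1, 12.7 and 15.3% in the vehicle samples. The share of Mapk13 was therefore higher in every IL-1β sample, on average 33.1% ± 2.24 against 13.4% ± 1.37 (SD, n = 4, exact permutation p = 0.0286). Mapk14 had 62.7% ± 2.32 with IL-1β against 82.2% ± 1.35 with vehicle (exact permutation p = 0.0286), although its own level was higher with IL-1β. Mapk14 was the leading p38 transcript in all 8 samples. Mapk12 held 2.65% ± 0.140 and 2.93% ± 0.549 (exact permutation p = 0.429) and Mapk11 held 1.498% ± 0.412 and 1.45% ± 0.525 (exact permutation p = 0.914), with groups that overlapped. The exact permutation p-values of the shares were not adjusted, and 0.0286 is the smallest that 4 samples against 4 allow. The shares within a sample add up to a whole and are not independent of each other. By coding length the share of Mapk13 was 26.2% with IL-1β and 9.97% with vehicle, and by the longest coding transcript 29.8% and 11.7%.

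**Figure D4:**
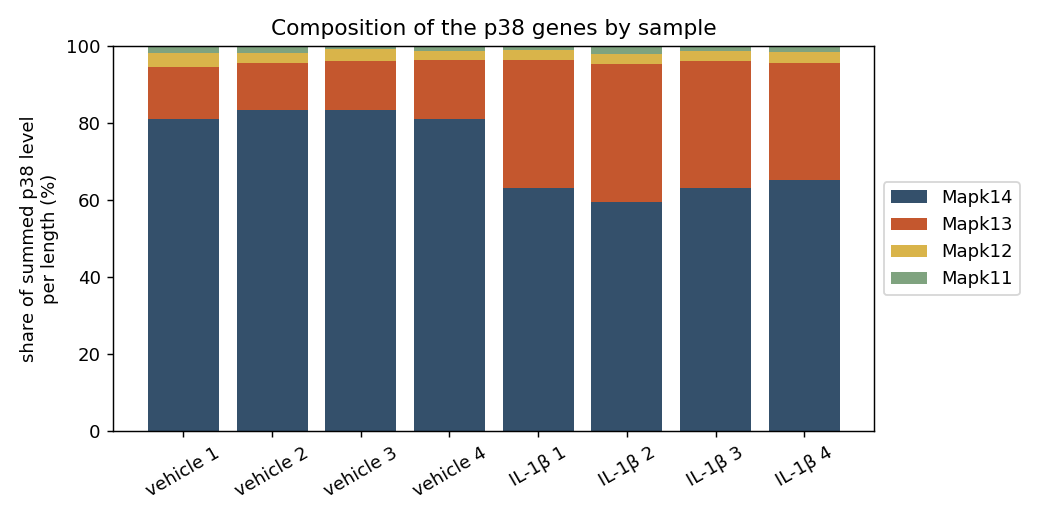
Share of each p38 gene in the summed p38 level per length (%), with 1 stacked bar per sample. The Mapk13 part is 12.1 to 15.3% in the vehicle samples and 30.4 to 35.9% in the IL-1β samples.

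The summed p38 level was 21.9, 22.6, 22.0 and 21.5 CPM per kilobase in the IL-1β samples and 13.3, 13.9, 13.2 and 13.1 in the vehicle samples, a ratio of means of 1.64. Mapk13 accounted for 63.9% of the difference of 8.61 CPM per kilobase and Mapk14 for 32.3%, with 2.21% from Mapk12 and 1.57% from Mapk11. Mapk13 therefore contributed more to the difference than Mapk14 while holding the smaller share of the level in both groups. These parts are for the deposited length and depend on the length used. Per kilobase of the coding region, Mapk13 averaged 20.9 with IL-1β against 5.14 with vehicle, and Mapk14 55.8 against 44.6. The summed levels are a description and were given no test.

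The JNK genes encode kinases that phosphorylate c-Jun, and JNK1 and JNK2 are found in most tissues, whereas JNK3 is known from brain, heart and testis. Mapk8 was at 28.1, 30.2, 27.0 and 29.8 CPM with IL-1β and at 30.4, 30.3, 32.6 and 28.5 CPM without it. Mapk9 was at 51.8, 53.3, 54.8 and 55.2 CPM with IL-1β and at 51.6, 55.3, 51.1 and 52.4 CPM without it. The groups overlapped for both genes. The log2 fold change was -0.08 for Mapk8 (SE 0.0559, adjusted p = 0.266 by edgeR) and 0.03 for Mapk9 (SE 0.0417, adjusted p = 0.576 by edgeR). With each sample left out in turn, Mapk8 stayed between -0.11 and -0.04 and Mapk9 between 0.02 and 0.06. Mapk10 had 1, 2, 0 and 0 counts with IL-1β and 0, 0, 1 and 0 with vehicle, all under the detection floor, so JNK3 transcripts were not detectable at this depth.

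The summed JNK level was 10.4 ± 0.262 CPM per kilobase with IL-1β and 10.4 ± 0.273 with vehicle (SD, n = 4), a ratio of 1.00. Mapk9 made up 75.9% ± 1.12 of it with IL-1β and 74.4% ± 1.46 with vehicle, and Mapk8 nearly all of the rest. These shares overlapped between groups. Whether the response of the JNK genes differed from that of the p38 or ERK genes was not tested.

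Mapk3 encodes ERK1, a kinase of the growth factor cascade below RAF and MEK. It was at 70.4, 68.5, 78.4 and 70.1 CPM with IL-1β and at 63.0, 64.2, 62.8 and 60.4 CPM without it. IL-1β sample 3 was the highest, and the other IL-1β samples also lay above all vehicle samples. Mapk3 rose 1.15-fold, a log2 fold change of 0.20 (SE 0.0436, adjusted p = 0.000400 by edgeR), and stayed past the threshold with any 1 sample left out (0.16 to 0.23).

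Mapk7 encodes ERK5, which is activated by MEK5 and whose extension can act in transcription. It was at 25.05, 27.8, 32.0 and 28.2 CPM with IL-1β and at 19.7, 21.1, 24.5 and 23.7 CPM without it. The groups lay close together, with vehicle sample 3 just below IL-1β sample 1. Mapk7 rose 1.29-fold, a log2 fold change of 0.36 (SE 0.0721, adjusted p = 0.00015 by edgeR). Both ERK genes rose, and the share of Mapk3 in their summed level per length, 83.2% ± 0.890 with IL-1β and 84.6% ± 1.52 with vehicle (SD, n = 4), overlapped between groups.

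The promoter windows of the members, 250 bases before to 50 bases after the start of transcription in RefSeq (GRCm38.p6), were searched on both strands for motifs of factors linked to IL-1β signalling. Windows matched by symbol for 8 of the 9 genes, all but Mapk3. The AP-1 motif TGANTCA, bound by JUN and FOS dimers, was in 0 member windows and in 7.81% of all 32851 windows. The NF-κB consensus was in the windows of Mapk7 only and in 8.46% of all windows. It is shown with 10 bases on each side and the match in capitals, and lies within chr11:61494212-61494511 on the minus strand.
Mapk7: ataaaggggtGGGAACCTCCacggaggccg
The match began 38 or 33 bases before the start, depending on which of the 2 listed starts is taken. The window of Mapk13, the member with the largest change, is at chr17:28769067-28769366 on the plus strand and is given whole. It held neither motif, so that no base is in capitals.
Mapk13: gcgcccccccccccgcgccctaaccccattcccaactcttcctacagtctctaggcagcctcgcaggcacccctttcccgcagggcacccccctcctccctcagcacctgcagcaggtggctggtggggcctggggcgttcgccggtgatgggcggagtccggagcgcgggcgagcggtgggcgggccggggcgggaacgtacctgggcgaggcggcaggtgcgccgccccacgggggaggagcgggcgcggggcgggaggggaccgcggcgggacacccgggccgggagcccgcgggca
Its GC content was 78.0%, against a median of 52.7% over all windows. A match is a description of letters and not evidence of binding, and the absence of a match says nothing of sequence outside the window.

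Around the 9 members, 77 other genes of the cascades were followed in 7 lists, from kinases upstream to substrates. Of these, 69 were tested, 23 were higher with IL-1β, 9 were lower and 37 did not pass the test. The 46.4% that changed compare with 40.2% over all genes tested, and 4 were DEGs. The counts describe the lists and were given no set test.

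**Figure D5:**
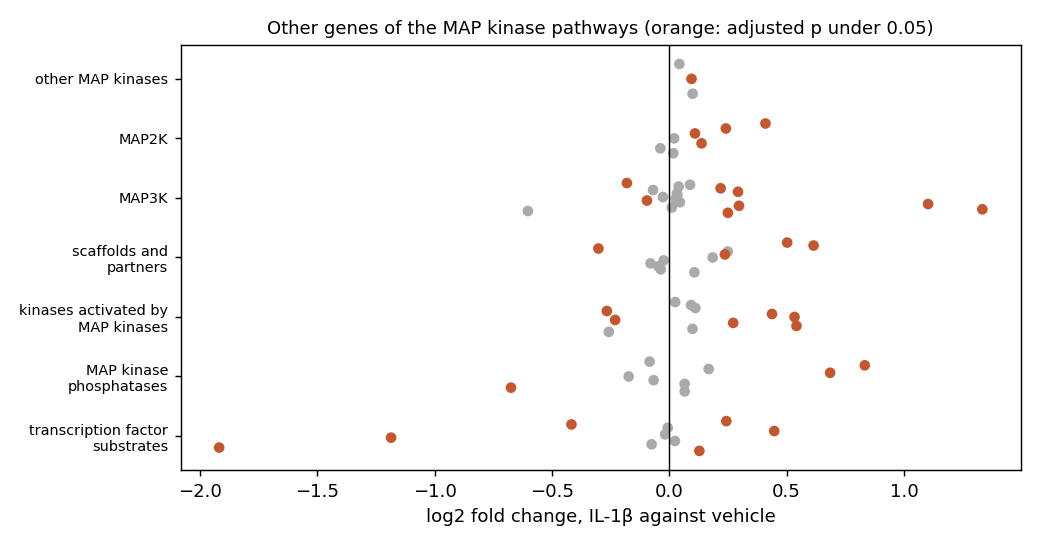
Log2 fold change (IL-1β against vehicle) of each tested gene in 7 lists of other MAP kinase pathway genes, orange where the adjusted p is under 0.05 and grey otherwise. Most points lie between -0.5 and 0.5, and Map3k8, Map3k5, Mef2c and Fos lie beyond 1 or -1.

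Among MAP3Ks, the entry kinases of the cascades, 6 of 18 tested genes were higher, 2 lower and 10 did not pass, with a median log2 fold change of 0.04. Map3k8, known as TPL2 and placed upstream of MEK1 in inflammatory signalling, rose from 6.005 ± 0.620 to 15.1 ± 0.768 CPM (log2 fold change 1.33, SE 0.0974, adjusted p = 2.78e-12). Map3k5, known as ASK1 and placed upstream of p38 and JNK in stress responses, rose from 29.7 ± 2.20 to 63.9 ± 2.56 CPM (1.10, SE 0.0491, adjusted p = 3.42e-17). Araf, a RAF kinase, fell from 79.1 to 69.7 CPM and Map3k3 from 84.5 to 79.2 CPM.

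Of the 7 MAP2Ks, which pair with particular MAP kinases, 4 were higher and 3 did not pass, and all 7 are named here whatever their values. Map2k1 (MEK1), which activates ERK1, rose from 59.7 ± 2.18 to 79.4 ± 3.03 CPM (log2 fold change 0.41, SE 0.0410, adjusted p = 2.09e-09). Map2k2 (MEK2) rose from 139.9 to 165.5 CPM and Map2k5 (MEK5), the activator of ERK5, from 34.1 to 37.3 CPM, the latter with groups that overlapped. Of the activators of p38, Map2k3 rose from 110.7 to 119.3 CPM (0.11, SE 0.0342, adjusted p = 0.0112), while Map2k6 was at 1.02 ± 0.310 CPM after IL-1β against 1.05 ± 0.139 CPM after vehicle. The activators of JNK did not pass the test, with Map2k4 at 46.5 against 45.7 CPM and Map2k7 at 43.8 against 43.2 CPM.

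Of 11 tested scaffolds and partners 3 were higher, 1 lower and 7 did not pass. Mapk8ip3, a scaffold for JNK, rose from 106.9 to 126.0 CPM and Arrb2, an arrestin that can bind ERK and JNK3, from 4.12 to 5.88 CPM. Lamtor3, which tethers MEK1 and ERK1 at late endosomes, fell from 34.5 to 27.97 CPM. Of the 5 MAP kinase genes outside the 9, 3 were tested, and 1 was higher: Mapk6 (ERK3), an atypical MAP kinase, at 186.8 against 174.9 CPM (log2 fold change 0.09).

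Downstream, 4 of 11 kinases activated by MAP kinases were higher, 2 lower and 5 did not pass. Rps6ka4 (MSK2), a target of ERK and p38, rose from 34.5 ± 0.486 to 50.2 ± 1.87 CPM (log2 fold change 0.54, SE 0.0445, adjusted p = 3.62e-11), and Rps6ka1 (RSK1), a target of ERK, from 13.04 to 18.9 CPM. Mknk1 fell from 87.3 to 72.6 CPM and Rps6ka2 from 30.9 to 26.3 CPM. Mapkapk2, which encodes MK2 and was named after its value was seen, was at 121.3 ± 4.99 with IL-1β and 119.2 ± 0.616 CPM with vehicle (0.03, adjusted p = 0.599).

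MAP kinase phosphatases remove both phosphates from the activation loop, and 2 of 9 tested were higher, 1 lower and 6 not past the test. Dusp10, which acts on p38 and JNK, rose from 4.61 ± 0.612 to 8.23 ± 0.819 CPM (log2 fold change 0.83, SE 0.121, adjusted p = 1.87e-06). Dusp8, which also acts on JNK and p38, fell from 67.7 ± 2.77 to 42.4 ± 2.03 CPM (-0.67, SE 0.0443, adjusted p = 2.68e-13). These phosphatases for the same kinases thus moved in opposite directions.

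Among 10 transcription factor substrates 3 were higher, 3 lower and 4 did not pass. Mef2c, a p38 and ERK5 substrate also known for its role in chondrocyte hypertrophy, fell from 52.2 ± 2.09 to 13.8 ± 0.687 CPM (log2 fold change -1.92, SE 0.0561, adjusted p = 1.41e-21). Fos, an AP-1 subunit, fell from 24.7 ± 0.733 to 10.8 ± 0.659 CPM (-1.19, SE 0.0711, adjusted p = 3.52e-14). Elk3 rose from 48.7 to 66.3 CPM and Atf2, a p38 and JNK substrate, from 43.2 to 51.3 CPM. Jun, the substrate that gave JNK its name and that was named after its value was seen, was at 122.0 CPM after IL-1β against 120.0 CPM after vehicle (0.02, adjusted p = 0.631).

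The genes whose log2 CPM followed that of Mapk13 most closely over the 8 samples were Abi3bp, Mindy1 and Traf2. Abi3bp (r = 0.999), which encodes an extracellular matrix protein, averaged 72.1 CPM after IL-1β against 33.1 CPM after vehicle. Mindy1 (r = 0.998), a deubiquitinase, was at 60.2 and 39.0 CPM, and Traf2 (r = 0.998), an adaptor of TNF receptor signalling, at 41.6 and 21.2 CPM. The 8 samples form 2 groups, so any gene that differs between them correlates, and 950 genes had an r above 0.95.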

How the data were processed

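The treatment in the labels gave the groups, 4 with IL-1β and 4 with vehicle. The authors deposited whole-number counts for each gene symbol. Per the labels and methods, reads were trimmed with cutadapt, aligned by STAR to mm10 (GENCODE vM20) and summed per gene by featureCounts. Whether the counts precede the RUVseq correction of the methods is not stated, the strand setting is not given in the sources used here, and counts were used as deposited. The authors also deposited gene lengths, in bases (unit: other), which were used for levels per length. For all 9 genes they equalled the exon length in GENCODE vM21, from which positions and coding sequences came.

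Counts were scaled by TMM (factors 0.984 to 1.01) and tested by edgeR 4.0.16's quasi-likelihood test (limma 3.58.1, R 4.3.3) over 14404 genes (CPM over 1 in 4 or more samples), with Benjamini-Hochberg adjustment over all of them. Isoform ratios used counts + 0.5, and ratios and shares were compared by the two-sided exact permutation test over the 70 splits of 8 samples into 4 and 4. Likeness to Mapk13 was Pearson's r of log2(CPM + 0.5). Other values were computed in Python 3.11.15 with numpy 2.4.6, scipy 1.17.1 and pandas 2.3.3, and figures with matplotlib 3.10.9. Simulated data for this comparison had 200 of 14209 genes changed by 1.5 on the log2 scale. On these, edgeR recovered 200 with 13 false calls and DESeq2 199 with 9. The log2 fold changes of Mapk3, Mapk7, Mapk12 and Mapk14 were smaller, at 0.20 to 0.56, and recovery of changes of that size was not tested. The simulation also changed a smaller part of the genes than the 40.2% that changed in the data.

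The members and lists were chosen with earlier results of these data known. All 9 members are named. From each list the 2 changed genes that rose most and the 2 that fell most are named where the groups do not overlap and the higher mean is at least 5 CPM, with the 3 genes most like Mapk13. Others are marked in the text. Alternatives were DESeq2 1.42.0, other size factors, other filters, the replicate number as a block, 1 RUVs factor, another pseudocount, other lengths and each sample left out in turn. Protein sequences were not used here.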

Additional observations from a re-analysis of the deposited data

Results flagged for a closer look

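The highest and the lowest sample of each group of 4 were tested by the gap to the nearest other sample, as a share of the group's range. Of 36 groups of 4 values for the MAP kinase genes, 2 exceeded Dixon's 95% critical value for 4 samples, where chance flags about 1 in 20 groups, or 1.8 of 36. Mapk12 made up 2.86% of the summed p38 level in IL-1β sample 4 and 2.56 to 2.60% in the other IL-1β samples (ratio 0.860). The log2 ratio of Mapk12 to Mapk11 was 2.32 in vehicle sample 3 and 1.04 to 1.22 in the other vehicle samples (ratio 0.859), and Mapk11 had 4 counts in that sample.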

How the results depend on the processing

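No result past its threshold changed direction under any alternative run. Of the values recomputed, 274 kept their side of the threshold or stayed within the spread of replicates, 5 were the losses of the Mapk12 call given above, and 4 moved by more than the spread. The number of MAP kinase genes that changed was 4 under those 5 alternatives and 5 under all others, and 4 to 5 with 1 sample left out. Mapk13 was the 1 DEG under all of them. Among results not past a threshold, the difference in the log2 ratio of Mapk12 to Mapk11 ranged from -0.35 to 0.11 with 1 sample left out, and that in the share of Mapk11 from -0.19 to 0.21 percentage points. The 4 that moved are shares in vehicle. The share of Mapk9 in the JNK level was 74.4%, and became 63.3% with counts not divided by length, 63.5% by coding length and 68.0% by the longest coding transcript, a length added after seeing the data. The share of Mapk3 in the ERK level was 84.6%, and became 73.8% with counts not divided by length. Genes tested without a filter numbered 32379, and Mapk12 was then adjusted over these.

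No pairing of the samples by replicate number was seen. Same-numbered samples had a mean correlation of -0.02 (-0.07 to 0.04, 4 pairs), and other pairs 0.01 (-0.08 to 0.09, 12 pairs). The labels do not state whether same-numbered samples were prepared together, and 4 pairs cannot exclude it. With the replicate block the same 5 MAP kinase genes changed, with Mapk12 at a log2 fold change of 0.57 (adjusted p = 0.0388 by edgeR). Depth limits the rare members: Mapk10 was at or under 2 counts and Mapk11 at or under 18 counts in every sample, and no exact p for 4 samples against 4 can be below 0.0286.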
